A study of Mus musculus with 16 samples.

Results

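The clustered protocadherin genes encode cadherin-type adhesion proteins of the neuronal surface and lie in 3 neighbouring clusters, alpha, beta and gamma, on the plus strand of mouse chromosome 18. All entries of the deposited gene table whose symbol is Pcdha, Pcdhb or Pcdhg followed by a letter or number were taken, which gave 61 of 36930 entries. They comprised 14 alpha genes, 22 beta genes, 22 gamma genes and 3 entries named Pcdha4-g, Pcdha6-g and Pcdha7-g, which start in the alpha cluster and end in the gamma cluster. On GRCm38 they span positions 36930285 to 37841873 of chromosome 18. Entries were picked by symbol and not by a measured value, although the gene family was chosen with earlier results of these data known.

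RNAseq was done on cortices of 16 C57BL6 pups at P7, 8 Avil-ChR2 and 8 ChR2-flfl, of both sexes. All pups carried the floxed ChR2/tdTomato (Ai27D) allele of the Rosa26 locus and stayed in a chamber with blue light on each day from P1 to P5, for 1 h per day. Avil-ChR2 pups in addition carried Cre recombinase under the advillin promoter, meant to remove the stop cassette mainly in sensory neurons. The ChR2-flfl controls had no Cre. Cre was thus directed at sensory neurons, and the tissue sequenced was the whole cortex. Avil reads were also higher in the Avil-ChR2 cortices (39.7 compared with 1.07 CPM on average). Whether Cre or ChR2 was active in the cortex was not tested. The comparison asks whether RNA levels in the cortex differed after the light exposure of pups with and without ChR2. No group was kept without the light. An effect of light through ChR2 and an effect of Cre or ChR2 expression itself can therefore not be told apart.

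Each neuron uses a small, largely random choice of clustered protocadherin promoters, and the proteins bind the same isoform on other membranes. In this way neurites of one neuron recognize and avoid each other. In the alpha and gamma clusters every promoter has its own variable first exon, which is spliced to constant exons at the end of the cluster, whereas each beta gene is a single exon. CTCF and cohesin bring a promoter to the enhancers, and DNA methylation keeps unused promoters silent.

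This gene structure sets how reads can be told apart. In the GENCODE annotation of GRCm38, all 22 gamma genes had a transcript of 4 exons, and 41.1% to 45.3% of its 50-base stretches occurred in every gamma gene. For the alpha genes, of which 13 of 14 were found in the annotation, 48.1% to 54.5% were shared by all. The 22 beta genes had 1 exon each, and none of their 50-base stretches occurred in all of them. Between 0% and 11.99% occurred in at least 1 other member. Values of an alpha or gamma entry are uncertain, because reads from the constant exons fit every gene of the cluster and the authors' text does not state to which entry they were assigned.

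The reads per pup, worked out from the step of the normalized values, ranged from 30549126 to 48711134, with the lowest number in ChR2-flfl replicate 3. Avil, the locus that drives Cre, was at 1.07 ± 0.20 normalized reads (CPM) in ChR2-flfl and 39.7 ± 2.9 CPM in Avil-ChR2 cortices (mean ± SD, n = 8), so that the genotypes went with their labels. The source of these Avil reads in the cortex was not tested. All 10 markers of cortical neurons passed the filter on low values, and their sum was 2153 to 2333 CPM in ChR2-flfl and 2213 to 2338 CPM in Avil-ChR2. The choroid plexus markers summed to 2.47 to 5.32 CPM and 3.19 to 6.53 CPM, and the thalamus markers to 3.20 to 4.79 CPM and 3.18 to 4.5 CPM. Higher sums were those of the striatum markers, with 28.0 to 48.9 CPM and 25.9 to 56.0 CPM. The markers of hippocampal granule cells summed to 27.7 to 35.1 CPM and 26.1 to 34.6 CPM. Among the markers, Avil apart, only Slc17a7 and Ttr had an unadjusted P under 0.05, and their part in the protocadherin values was not tested. In bulk tissue, fewer cells of a type and less RNA per cell cannot be told apart.

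Of the 61 entries, 48 passed the filter of at least 12 of 16 pups above -5 on the log2 scale. They were Pcdha1 and Pcdha2, all 3 alpha-gamma entries, 21 beta genes and 22 gamma genes. The other 12 alpha genes were empty in all 16 pups, i.e. 19.7% of the clustered protocadherin entries compared with 23.5% of all entries of the table. Pcdhb1, the first beta gene, failed the filter because it had 2 reads in 5 pups and none in the other 11.

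**Figure D1:**
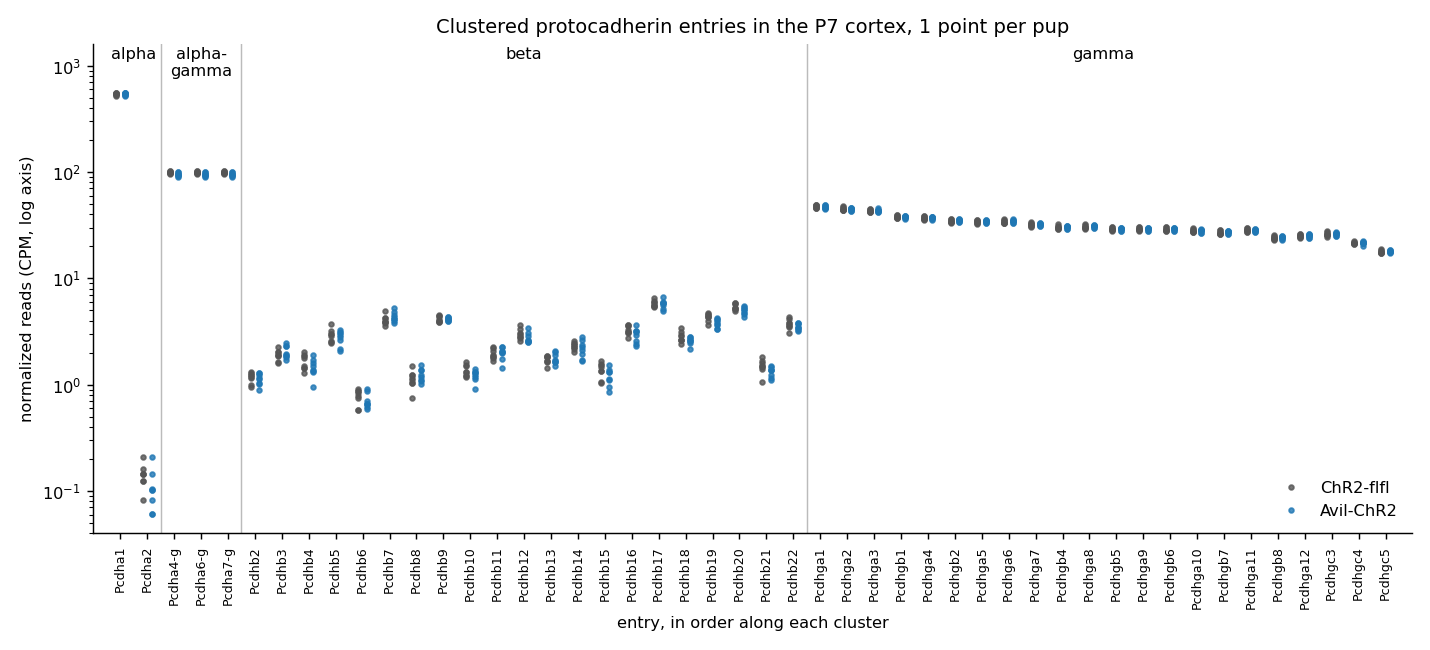
Normalized reads (CPM, log axis) of the 48 entries that passed the filter, in their order along the clusters, with 1 point per pup (grey, ChR2-flfl; blue, Avil-ChR2). Pcdha1 lies between 515 and 558.9 CPM, the beta genes lie below 7 CPM, and the gamma entries fall from Pcdhga1 to Pcdhgc5, with overlapping genotypes throughout.

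Nearly all reads of the alpha genes were recorded under 1 entry. Pcdha1, the first gene of the cluster, had 520.7 to 552.8 CPM in ChR2-flfl (median 541.2) and 515 to 558.9 CPM in Avil-ChR2 (median 542.9), which were 16106 to 27316 reads per pup. Its span contains 12 other members, and these are the 12 that were empty. They included Pcdhac1 and Pcdhac2, the C-type alpha genes, of which Pcdhac2 is known for its role in serotonergic axons. Of the 14 alpha genes, 13 end at the same base. The exception is Pcdha2, which ends 4 bases further downstream, is not contained in Pcdha1, and held 3 to 10 reads per pup. The value of Pcdha1 can therefore not be read as the level of the first alpha gene, and no level can be given for Pcdhac1, Pcdhac2 or Pcdha3 to Pcdha12. The count of each alpha promoter was not measurable from this table.

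Pcdha1 did not differ detectably between genotypes. The means were 540.7 ± 11.3 CPM in ChR2-flfl and 542.4 ± 14.9 CPM in Avil-ChR2 (n = 8), and the log2 difference, Avil-ChR2 minus ChR2-flfl, was 0.0043 with a 95% confidence interval from -0.043 to 0.052 (limma adjusted P = 0.993). The entry had 25661 reads per pup on average. Pcdha2 ranged from 0.083 to 0.209 CPM in ChR2-flfl (median 0.145) and from 0.061 to 0.209 CPM in Avil-ChR2 (median 0.103). The groups overlapped, and a log2 difference of -0.46 (95% confidence interval -1.03 to 0.11, limma adjusted P = 0.941) at 5.88 reads per pup was not distinguishable from 0.

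Pcdha4-g, Pcdha6-g and Pcdha7-g held identical values in all 16 pups and were counted as 1 measurement. Each spans 868072 to 889226 bases, runs through the whole beta cluster and ends with the gamma genes. Their value was 95.7 to 103 CPM in ChR2-flfl (median 99.1) and 89.0 to 100.6 CPM in Avil-ChR2 (median 94.7). In 6 of 8 Avil-ChR2 pups it was below the mean of the controls, and the ranges overlapped. The log2 difference was -0.066 (SE 0.027, 95% confidence interval -0.12 to -0.0088), with an unadjusted P of 0.026 and an adjusted P of 0.859 by limma. A two-sided exact permutation test that used every possible split of the pups gave P = 0.0186. Within the runs of pup numbers, the log2 difference was -0.049 (pups 26 to 33) and -0.083 (pups 35 to 42). The limma test lost its unadjusted P under 0.05 when any one of 4 pups was left out, with a log2 difference of -0.059 without ChR2-flfl replicate 6, -0.058 without ChR2-flfl replicate 7, -0.058 without Avil-ChR2 replicate 4 and -0.053 without Avil-ChR2 replicate 7. The lowest alpha-gamma value was that of Avil-ChR2 replicate 7, which also had the lowest sum of the beta genes (47.3 CPM). Deviations of the alpha-gamma value from the genotype means had a median Pearson's r of 0.50 with the beta genes and -0.21 with the gamma entries. Whether these reads include reads of the beta genes, and which transcripts give them, was not tested.

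Across all members, no entry passed an adjusted P of 0.05 in limma, compared with 2 of the 21183 genes tested (0.00944%). An unadjusted P under 0.05 was reached by 4 of 48 entries, all lower in Avil-ChR2, namely Pcdhb19 and the 3 alpha-gamma entries that share 1 value. Among all genes, 5.41% reached an unadjusted P under 0.05, 3.46% with a lower and 1.95% with a higher level in Avil-ChR2. With the shared value counted once, the members had 2 of 46 measurements (4.35%), which is close to this background. These 2 may not be separate, because the spans of the alpha-gamma entries cover Pcdhb19, and whether they share reads was not tested. With limma-voom on whole reads, Pcdhb20 was added to the same entries, and again none passed after adjustment. With median centring of the values, Pcdhb19 alone was left, and the log2 difference of the alpha-gamma entries was -0.064. Over the 48 entries, with the shared value counted 3 times, 23 log2 differences were negative. The median log2 difference was 0.0015 compared with 0.0020 over all genes tested. By cluster, the median was -0.091 for the beta genes and 0.0047 for the gamma entries.

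**Figure D2:**
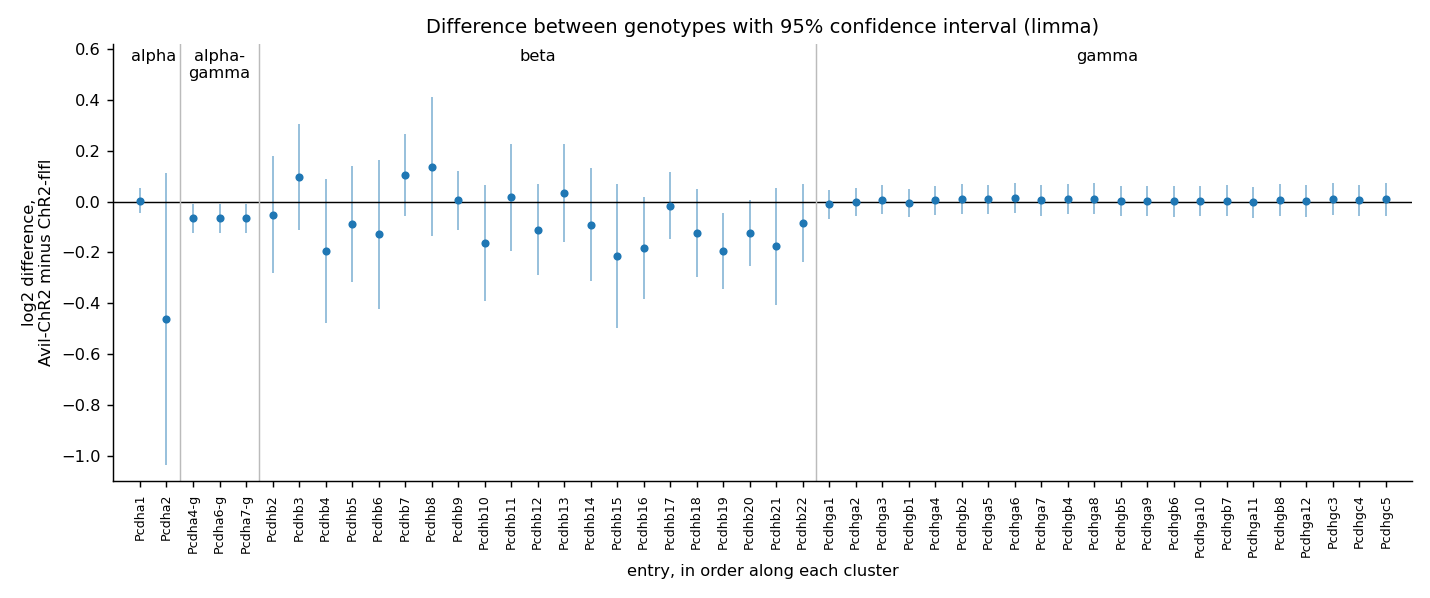
Log2 difference, Avil-ChR2 minus ChR2-flfl, of each of the 48 entries with its 95% confidence interval from limma, in order along the clusters. Intervals of the gamma entries stay within -0.067 and 0.074, those of the beta genes reach from -0.50 to 0.41, and only Pcdhb19 and the 3 alpha-gamma entries have intervals that do not include 0.

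The beta genes share little sequence with one another. Their spans lie inside those of the alpha-gamma entries, and how reads were divided between them is not given in the sources used here. Together the 22 genes summed to 53.8 to 59.4 CPM in ChR2-flfl (median 56.5) and 47.3 to 58.8 CPM in Avil-ChR2 (median 54.0). The Avil-ChR2 pups were more spread, with an SD of 3.94 compared with 1.8 CPM, and the ranges overlapped. The lowest sum was that of Avil-ChR2 replicate 7.

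Levels of the beta genes were compared per kb of gene, using the spans of the deposited table. By this length Pcdhb17 was highest, with 1.77 ± 0.12 CPM per kb in ChR2-flfl and 1.76 ± 0.16 CPM per kb in Avil-ChR2 (n = 8). Pcdhb20 followed with 1.59 ± 0.12 and 1.46 ± 0.11 CPM per kb, and Pcdhb9 with 1.36 ± 0.08 and 1.36 ± 0.05 CPM per kb. Pcdhb7 (mean of all pups 1.20 CPM per kb) and Pcdhb22 (1.18 CPM per kb) came next and lay within 1 SD of each other. At the lower end, Pcdhb6 had 0.333 ± 0.057 and 0.304 ± 0.051 CPM per kb, and Pcdhb1 was near 0 at a mean of 0.0053 CPM per kb. Pcdhb17 exceeded Pcdhb6 by 5.53-fold. The order depends on the length used. Per kb of the longest GENCODE transcript, Pcdhb20 (1.45 CPM per kb) and Pcdhb9 (1.36 CPM per kb) lay above Pcdhb17 (1.24 CPM per kb), and Pcdhb22 fell to 0.547 CPM per kb.

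Of the 21 pairs of neighbours in the order by span, 14 lay within 1 SD of each other and 7 were further apart, among them each step from Pcdhb17 down to Pcdhb7. The middle of the order, from Pcdhb14 to Pcdhb2, was a continuous series of values from 0.654 to 0.415 CPM per kb. The rank of 11 of the 22 genes was the same in both genotypes, and no gene moved by more than 3 ranks. The 5 genes with the largest shares made up 42.5% of all beta reads. CPM, not divided by length, and position were only loosely related, with Spearman's rho of 0.43 across the 21 genes from Pcdhb2 to Pcdhb22. These genes are neighbours in 1 set of libraries and not independent.

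**Figure D3:**
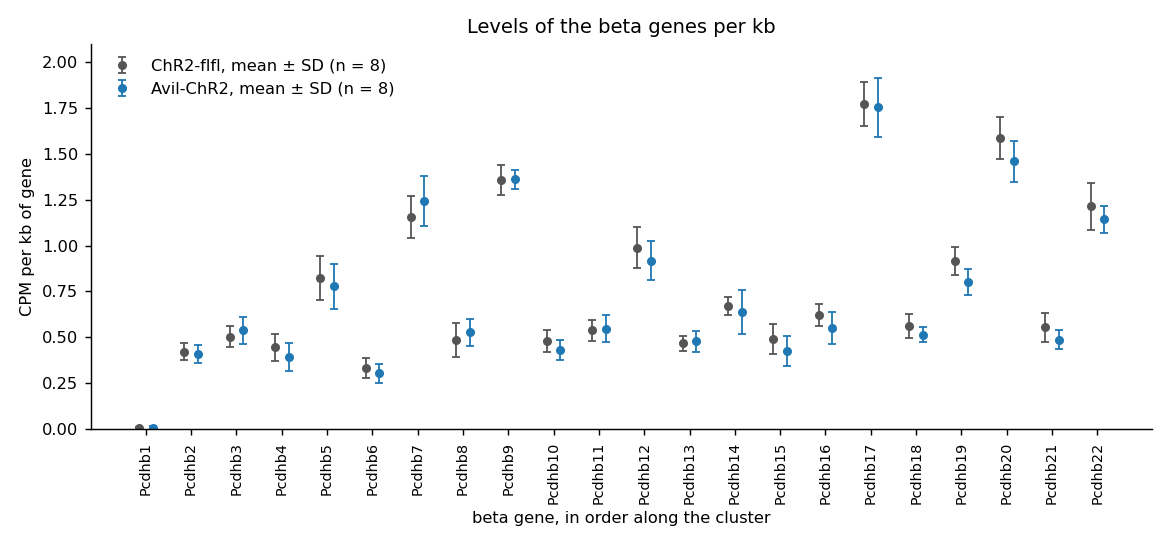
CPM per kb of span of the 22 beta genes in order along the cluster, as mean ± SD (n = 8 per genotype; grey, ChR2-flfl; blue, Avil-ChR2). Pcdhb17, Pcdhb20 and Pcdhb9 are highest, Pcdhb1 is near 0, and the bars of both genotypes overlap for every gene.

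Pcdhb19 was the beta gene with the smallest P. It had 3.63 to 4.68 CPM in ChR2-flfl (median 4.42) and 3.33 to 4.19 CPM in Avil-ChR2 (median 3.82), i.e. 192 reads per pup on average. All 8 Avil-ChR2 pups were below the mean of the controls, although 2 control pups had values within the Avil-ChR2 range. The means were 4.32 ± 0.36 and 3.78 ± 0.34 CPM (n = 8), and the log2 difference was -0.19 (SE 0.072, 95% confidence interval -0.34 to -0.044). The unadjusted P was 0.014 and the adjusted P 0.831 by limma, and the exact permutation test gave P = 0.0115. The unadjusted P stayed under 0.05 with each of the 16 pups left out in turn. By run of pup numbers, the log2 difference was -0.097 (pups 26 to 33) and -0.29 (pups 35 to 42), and only the latter had an unadjusted P under 0.05.

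Pcdhb20, the second highest beta gene, had 4.95 to 5.89 CPM in ChR2-flfl (median 5.21) and 4.33 to 5.44 CPM in Avil-ChR2 (median 5.03). Its log2 difference of -0.12 had a 95% confidence interval from -0.25 to 0.0072 (limma adjusted P = 0.911), and it was -0.24 for pups 35 to 42 and -0.0051 for pups 26 to 33. Pcdhb17 had 5.32 to 6.50 CPM (median 5.74) and 4.96 to 6.63 CPM (median 5.83), and the log2 difference was -0.016 (-0.15 to 0.12, limma adjusted P = 0.992). Pcdhb7 pointed the other way, with 3.55 to 4.90 CPM (median 3.92) in ChR2-flfl, 3.79 to 5.27 CPM (median 4.24) in Avil-ChR2 and a log2 difference of 0.11 (-0.055 to 0.27, limma adjusted P = 0.945).

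Over the 21 beta genes tested, 15 log2 differences were negative and 6 positive, and the median was -0.091. The median over all genes tested was 0.0020, and 48.6% of all genes had a negative difference. The 8 genes at the downstream end, Pcdhb15 to Pcdhb22, were all negative with a median of -0.15 and a range of -0.21 to -0.016, although Pcdhb17, the nearest to 0, was positive in pups 35 to 42 (0.0055). The 8 genes Pcdhb2 to Pcdhb9 had 4 negative differences and a median of -0.023, and 3 of the 5 genes Pcdhb10 to Pcdhb14 were negative. These stretches were set after the values were seen, and neighbours share the same 16 libraries, so that the counts are a description.

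**Figure D4:**
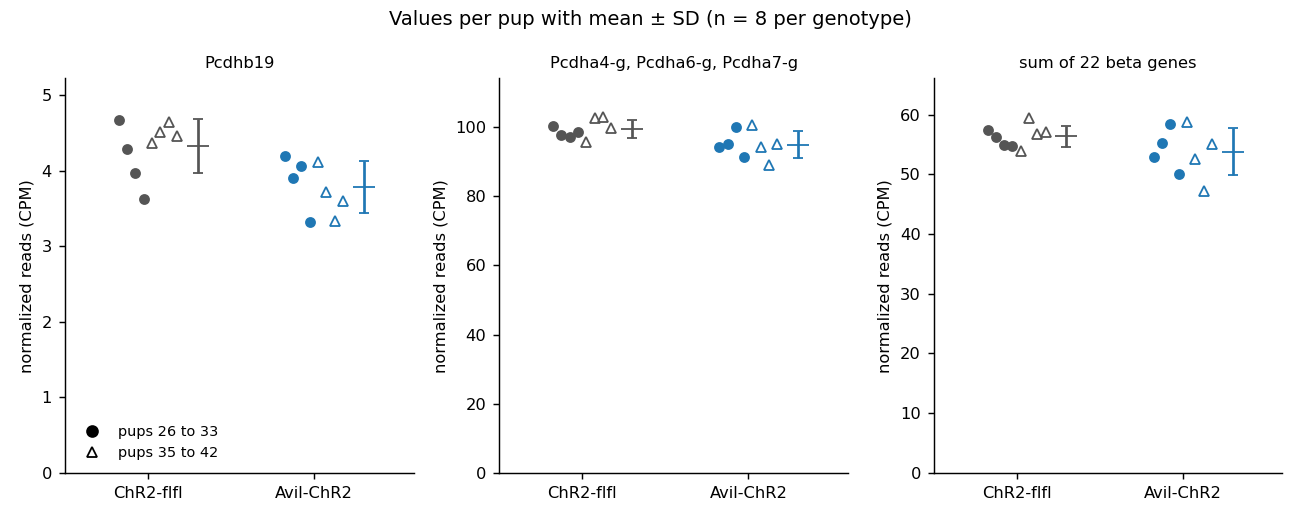
Normalized reads (CPM, linear axes from 0) of Pcdhb19, of the alpha-gamma entries and of the sum of the 22 beta genes, with 1 symbol per pup (filled circles, pups 26 to 33; open triangles, pups 35 to 42) and mean ± SD beside (n = 8 per genotype). Genotype ranges overlap in all 3 panels, and the lowest beta sum is that of an Avil-ChR2 pup at 47.3 CPM.

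The gamma entries were all filled and had 556 to 2406 reads per pup. Per kb of transcript, Pcdhga1 was highest with 10.1 ± 0.3 CPM per kb in ChR2-flfl and 10.03 ± 0.30 CPM per kb in Avil-ChR2. Pcdhga2 followed with 9.59 ± 0.30 and 9.58 ± 0.26 CPM per kb, and Pcdhga3 with 9.17 ± 0.29 and 9.22 ± 0.27 CPM per kb. The entries of the C-type genes, which have the shortest spans of the cluster (22328 to 35464 bases), were at the lower end. Because the constant exons are shared, these values are those of the entries as counted and not of single promoters. Pcdhgc3, which promotes dendrite growth of cortical neurons, had 5.55 ± 0.20 and 5.597 ± 0.158 CPM per kb. Pcdhgc4, which is needed for the survival of neurons, had 4.28 ± 0.11 and 4.29 ± 0.13 CPM per kb, and Pcdhgc5 had 3.76 ± 0.12 and 3.79 ± 0.10 CPM per kb.

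Values of the entries thus fell along the cluster, by 2.67-fold from Pcdhga1 to Pcdhgc5. The spans of the gamma entries end within 10 bases of one another and shorten from 179926 bases (Pcdhga1) to 22328 bases (Pcdhgc5). Span and CPM had a Spearman's rho of 0.99 across the 22 entries. How far the fall reflects reads shared between overlapping entries was not tested, so that it does not rank the promoters. The rank of each of the 22 genes was the same in both genotypes. Of the 21 pairs of neighbours in the order of levels, 13 differed by more than 1 SD and 8 did not. Spearman's rho between position and CPM per kb was -0.99 across the 22 entries, which share reads, libraries and the constant exons and hence are not independent. Going from one gene to the next along the chromosome, CPM per kb fell in all 16 pups at 17 of 21 steps. It rose in all 16 pups at 2 steps, from Pcdhgb7 to Pcdhga11 and from Pcdhga12 to Pcdhgc3. At the other 2 steps the pups differed in direction.

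In CPM, not divided by length, the steps differed in size. The largest was from Pcdhga3 to Pcdhgb1, with 5.37 ± 0.51 CPM in ChR2-flfl and 5.77 ± 0.67 CPM in Avil-ChR2 (n = 8), or 168 to 320 reads. Next were the steps from Pcdhgc3 to Pcdhgc4 (4.53 ± 0.47 and 4.66 ± 0.47 CPM), from Pcdhga11 to Pcdhgb8 (4.197 ± 0.472 and 4.05 ± 0.26 CPM) and from Pcdhgc4 to Pcdhgc5 (3.67 ± 0.24 and 3.62 ± 0.26 CPM). By contrast, Pcdhgb5 and Pcdhga9 were nearly equal, with a difference of -4 to 8 reads. At each of these steps, mean ± SD of the genotypes overlapped.

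No gamma entry differed detectably between genotypes. All log2 differences lay between -0.011 and 0.014, with 4 negative, 18 positive, a median of 0.0047 and adjusted P-values from 0.986 to 0.9997 by limma. Pcdhga1 had 45.7 to 49.2 CPM in ChR2-flfl (median 47.5) and 45.3 to 49.2 CPM in Avil-ChR2 (median 46.7), and the 95% confidence interval of the log2 difference was -0.067 to 0.044. Pcdhga2 had 43.6 to 47.4 CPM (median 44.4) and 43.2 to 46.3 CPM (median 45.0), and Pcdhga3 had 41.8 to 45.3 CPM (median 43.0) and 41.9 to 45.6 CPM (median 43.7). The genotypes covered the same range for all these genes.

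Of the C-type genes, Pcdhgc3 had 24.6 to 27.6 CPM (median 25.9) in ChR2-flfl and 25.03 to 27.07 CPM (median 26.3) in Avil-ChR2, with an interval of the log2 difference from -0.051 to 0.074. Pcdhgc4 had 20.8 to 22.4 CPM (median 21.4) and 20.2 to 22.4 CPM (median 21.6), with an interval from -0.057 to 0.066. Pcdhgc5 had 17.4 to 18.8 CPM (median 17.5) and 17.2 to 18.6 CPM (median 17.9), with an interval from -0.055 to 0.074. Shared reads limit these intervals to the entry as counted, and a change of 1 promoter could be hidden in them.

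The spread between pups of a genotype was small and close to counting error. The residual SD on the log2 scale was 0.037 to 0.047 for the gamma entries, 1.15 times the SD expected from counting alone (median), and 0.073 to 0.27 for the beta genes, 1.22 times counting error (median). Other genes with mean levels in the range of the gamma entries (3652 genes) had a median residual SD of 0.083 compared with 0.044 for the gamma entries. Those in the range of the beta genes (3873 genes) had 0.23 compared with 0.18. For Pcdha1, with 25661 reads, the residual SD of 0.035 was 3.90 times counting error. The beta genes had few reads, with 34.9 reads per pup for Pcdhb6 and 273 for Pcdhb17.

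**Figure D5:**
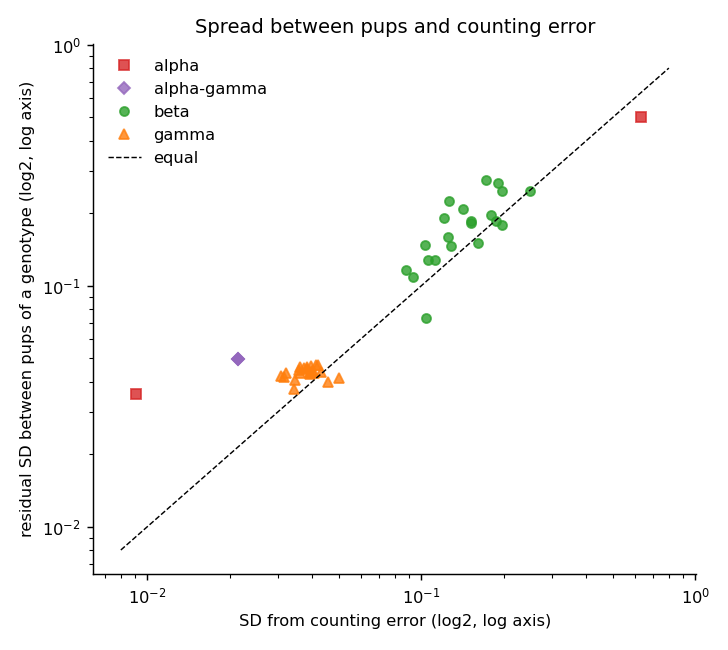
Residual SD between pups of a genotype against the SD expected from counting reads, both on the log2 scale with log axes, for the 48 entries that passed the filter. Beta and gamma entries lie near the dashed line of equality, whereas Pcdha1 and the alpha-gamma entries lie above it at ratios of 3.90 and 2.32.

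The effect of genotype was compared between sexes with an interaction term in limma. No gene of the 21183 passed after adjustment, and 4.31% had an unadjusted P under 0.05. Of the 48 entries, only Pcdhb15 reached an unadjusted P under 0.05 with the sexes of the labels (adjusted P = 0.993 by limma). In males it had 1.53 ± 0.14 CPM in ChR2-flfl (n = 4) and 1.06 ± 0.10 CPM in Avil-ChR2 (n = 3), and in females 1.23 ± 0.20 CPM (n = 4) and 1.27 ± 0.25 CPM (n = 5). The labels give Avil-ChR2 replicate 4 as female, whereas the study's sample list gives it as male. With the latter, 6.23% of all genes and 2 members, Pcdhb15 and Pcdhb16, had an unadjusted P under 0.05, and the smallest adjusted P of a member was 0.794.

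Genes known to control the choice of promoters or to act with the proteins were taken as a list of 37, of which 36 were tested. None passed an adjusted P of 0.05, 3 had an unadjusted P under 0.05 and were lower in Avil-ChR2, and the median log2 difference was -0.0064. Over all genes, 5.41% had an unadjusted P under 0.05, 3.46% with a lower level, and the median was 0.0020. Ctcf, the insulator protein that binds the promoters, had 95.3 ± 2.4 CPM in ChR2-flfl and 93.8 ± 2.1 CPM in Avil-ChR2 (n = 8), and its log2 difference was -0.023 (limma adjusted P = 0.962). Rad21, a cohesin subunit, had 123.4 ± 4.2 and 122.5 ± 4.4 CPM. Smchd1, which silences clustered protocadherins, had 101.8 ± 3.5 and 101.2 ± 4.6 CPM, and the histone methyltransferase Setdb1 had 85.6 ± 1.7 and 85.9 ± 2.6 CPM. Dnmt3b, the DNA methyltransferase of the promoters, was low with 2.28 ± 0.18 and 2.11 ± 0.26 CPM (log2 difference -0.12, limma adjusted P = 0.945).

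Nipbl and Atf7ip were among the genes with an unadjusted P under 0.05 in limma. Nipbl, the cohesin loader, had a log2 difference of -0.080 and Atf7ip, a partner of Setdb1, of -0.062 (adjusted P = 0.911 for both). With sex as a covariate the log2 differences were nearly as large, -0.079 and -0.080 for Nipbl and -0.058 and -0.062 for Atf7ip (labels and the study's sample list), but the unadjusted P was no longer under 0.05. The exact permutation test, without a covariate, gave P = 0.059 for Nipbl and P = 0.048 for Atf7ip.

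Of 12 non-clustered protocadherin genes, which are single genes elsewhere in the genome with similar adhesion domains, 11 were tested and 10 had a negative log2 difference, with a median of -0.046, compared with 48.6% and 0.0020 over all genes tested. None passed an adjusted P of 0.05 in limma, and 2 had an unadjusted P under 0.05 (5.41% of all genes). Pcdh19, a gene of neuronal adhesion linked to epilepsy, had 114.2 to 158.0 CPM in ChR2-flfl (median 140.0) and 108.3 to 143.9 CPM in Avil-ChR2 (median 124.1). The log2 difference was -0.15 (unadjusted P = 0.020, adjusted P = 0.847 by limma), with -0.15 in both runs of pup numbers. Pcdh9 had 209.9 to 278.9 CPM (median 228.9) and 186.3 to 240.9 CPM (median 221.0), and the log2 difference was -0.13 (unadjusted P = 0.030, adjusted P = 0.884 by limma). By run of pup numbers it was -0.054 (26 to 33) and -0.20 (35 to 42). The exact permutation test gave P = 0.056 for Pcdh9 and P = 0.046 for Pcdh19. In limma, Pcdh9 lost its unadjusted P under 0.05 without ChR2-flfl replicate 6 or 7 or Avil-ChR2 replicate 4, 7 or 8. Genotype ranges overlapped for both genes.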

How the data were processed

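RNAseq of cortex was done with stranded TruSeq mRNA libraries. The authors used SeqMan NGen 17 for the alignment to mm10 (GRCm38), with a minimum of 50 bp per read, counted reads in ArrayStar 17 and scaled them with TMM factors of edgeR. The deposited values are CPM on a linear scale with decimal commas, and an entry without reads is empty. Whether the counting used strand, and how overlapping genes were treated, is not given in the sources used here. Whole reads were recovered from the step of the values, and 100% of values up to 20000 reads were whole to within 0.05. Depth affects counting error. ChR2-flfl replicate 3, the pup with the fewest reads, also had the fewest entries with a value (23246). Litters were not used, and no covariate or pairing was used.

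Values were log2 transformed, and missing values or those below -5 were set to -5. Genes with at least 12 of 16 values above -5 were kept. Genotypes were compared with limma 3.58.1 in R 4.3.3 (intensity trend) with Benjamini-Hochberg adjustment over 21183 genes. Single members and list genes were also compared with an exact permutation test in Python 3.11.15. Counting error is the Poisson SD of the reads on the log2 scale. Exon structure and shared 50-base stretches were taken from GENCODE vM21. Alternatives were other filters, scalings and covariates, a replicate block, each run of pup numbers (26 to 33 and 35 to 42), each pup left out, and limma-voom and transcript lengths for the beta genes, which were both added after seeing the data.

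All members were described. Full values were given for the C-type genes, the 3 highest of each cluster and members with an unadjusted P under 0.05, and of the lists for Ctcf, Rad21, Smchd1, Dnmt3b, Setdb1 and genes with an unadjusted P under 0.05. Pcdhb9, Pcdhb15, Pcdhb16, Pcdhb22 and Pcdhb6 were added for their rank or interaction. Members and lists were chosen with earlier results of these data known. 1 gene of the list of regulators is not reported here. Sequences of the members are not shown here.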

Additional observations from a re-analysis of the deposited data

Results flagged for a closer look

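Among 46 groups of 8 values (13 protocadherin entries and 10 list genes in 2 genotypes), 1 was marked by a test for a single distant value (Dixon's, critical value 0.526). The value of Pcdhgc4 in Avil-ChR2 replicate 2 was 20.2 CPM and the lowest of its genotype, and its gap to the next pup was 0.536 of the whole range. By chance about 1 in 20 groups is marked. No member differed between sexes in its effect of genotype after adjustment.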

How the results depend on the processing

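No member passed an adjusted P of 0.05 under any of the 29 alternatives run in limma or limma-voom. Planned fits with the edgeR and DESeq2 count models were not run, and limma-voom on the recovered reads was the only count-based alternative. The number of members with an unadjusted P under 0.05, 4 as reported, was 1 with median centring, 0 in pups 26 to 33 and 2 in pups 35 to 42. It was 1 to 7 with each pup left out, with 7 without ChR2-flfl replicate 3 and 1 (Pcdhb19) without ChR2-flfl replicate 6 or 7 or Avil-ChR2 replicate 7, and 2 without Avil-ChR2 replicate 4. Genes of the whole table with an adjusted P under 0.05, 2 as reported, were 1 with median centring and in either run of pup numbers and 1 to 2 with a pup left out. Regulators with an unadjusted P under 0.05, 3 as reported, were 1 with median centring, with sex from either source and in pups 35 to 42, 0 in pups 26 to 33, and 1 to 6 with a pup left out. Non-clustered genes, 2 as reported, were 1 with no filter, with median centring and in pups 26 to 33, and 1 to 3 with a pup left out. Members with an unadjusted P under 0.05 for genotype by sex rose from 1 to 2 with the sexes of the study's sample list. The cause of these changes was not tested. The beta median stayed negative, from -0.13 to -0.053.

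Genotypes share replicate numbers 1 to 8, which are serial numbers. Deviations of pups with the same number correlated at -0.344 to 0.389, over 0.1 in 3 of 8 pairs, and 1 of 8 pups correlated best with its own number, so that the numbers do not pair the samples. With the replicate block, members with an unadjusted P under 0.05 fell from 4 to 1 (Pcdhb19), regulators from 3 to 1 and genes with an adjusted P under 0.05 from 2 to 1.

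The direction of near-zero log2 differences changed without any call. In pups 26 to 33 they were 0.014 for Pcdhga1, 0.0063 for Pcdhga2, -0.00049 for Pcdhgc4, -0.0023 for Pcdhgc5 and 0.0045 for Smchd1. In pups 35 to 42 they were -0.020 for Pcdha1, 0.0055 for Pcdhb17, -0.0064 for Pcdhga3 and -0.0032 for Pcdhgc3. Pcdhga2 was at 0.0017 with quantile normalization and 0.00033 with median centring. With each pup left out, the ranges were -0.0035 to 0.015 for Pcdha1, -0.047 to 0.013 for Pcdhb17, -0.0081 to 0.0094 for Pcdhga2, -0.0018 to 0.017 for Pcdhga3, -0.0030 to 0.018 for Pcdhgc4, -0.020 to 0.00073 for Rad21, -0.0063 to 0.012 for Setdb1 and -0.024 to 0.0047 for Smchd1.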

Other observations

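The deviations of the pups from the mean of their genotype were compared between members as a description. Gamma entries moved together, with a median Pearson's r of 0.905 over 231 pairs (16 pups each), from 0.372 between Pcdhga1 and Pcdhgc5 up to 0.997. These entries share the constant exons and the same libraries. Beta genes, which hardly share sequence, had a median r of 0.241 over 210 pairs. They had 34.9 to 273 reads per pup on average, compared with 847 to 2238 for the gamma entries. How far counting error lowers r was not tested, so the 2 medians are not directly comparable. The alpha-gamma value had a median r of 0.50 with the beta genes (-0.16 to 0.86 over 21 pairs) and of -0.21 with the gamma entries (-0.56 to 0.21 over 22 pairs). Its r with Pcdha1 was 0.586. The span of the alpha-gamma entries covers both the beta and the gamma cluster.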
